A study of Mus musculus with 12 samples.

Results

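The SR proteins are a family of pre-mRNA splicing factors, and 10 mouse genes of the family were followed from the naive to the primed state of pluripotency: Srsf1, Srsf2, Srsf3, Srsf4, Srsf5, Srsf6, Srsf7, Srsf9, Srsf10 and Srsf11. They were chosen by name, as the rows of the deposited count table that carry these symbols, and all 10 were found among its 22462 genes. All 10 also passed the filter on low counts, which left 11750 genes for testing. Ribosome profiling and total RNA sequencing were carried out on mouse embryonic stem cells (ESCs) and on epiblast-like cells (EpiLCs), the primed cells that arise from ESCs in culture. The ESC medium was Knockout DMEM with serum (15% fetal bovine serum), to which LIF and the 2i inhibitors PD0325901 and CHIR99021 were added to hold cells in the naive state. EpiLCs had spent 24 hours in that medium and about 56 hours without LIF and 2i. The labels give no strain or line. Per the study's methods the line used for differentiation was V6.5, a mouse ESC line that here carried an mCherry reporter of the miR-290 locus and a GFP reporter of the miR-302 locus, so that ESCs and EpiLCs share both reporters. Each cell type gave 3 RPF libraries, made from ribosome protected fragments, which are stretches of mRNA that a ribosome shields from nuclease, and 3 libraries of total RNA, 12 libraries in 4 groups.

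SR proteins bind exonic sequence through RNA recognition motifs and recruit the early spliceosome through a tail rich in arginine and serine, the RS domain. Kinases of the SRPK and CLK families phosphorylate the serines of this tail, which controls entry into the nucleus, release from nuclear speckles and activity in splicing. Several members shuttle to the cytoplasm, where they act in mRNA export and translation. Many SR genes limit their own output through ultraconserved exons that carry a premature stop codon and send the transcript to nonsense-mediated decay (NMD). Transcripts labelled as targets of NMD are annotated in Gencode M21 for 9 of the 10 members, and for Srsf10 none is. Whether they carry such exons was not examined.

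The RS domain can be read directly in the coding sequence as alternating codons for arginine and serine. The 30-nt stretch richest in arginine and serine is shown for a pair of members with long runs and for the one with the fewest such pairs, 5′ to 3′ on the coding strand with arginine codons in capitals (mm10, GRCm38). They lie at chr11:88049469-88049498 on the plus strand for Srsf1, chr11:116852286-116852315 on the minus strand for Srsf2 and chr5:115332624-115332653 on the plus strand for Srsf9, each within a single coding exon.
Srsf1: AGAtctCGAtctCGAagcCGTagtCGTagc
Srsf2: CGCagcCGAtctCGAagcCGGagtCGGtcc
Srsf9: ggctactcaCGGtcgCGGtctgggtccAGG
All 10 codons shown for Srsf1 and for Srsf2 encode arginine or serine, against 7 of 10 for Srsf9. Adjacent arginine and serine codons were counted over the main coding sequence, that of a single transcript for each gene. They numbered 106 in Srsf4, 74 in Srsf6, 55 in Srsf7, 52 in Srsf2 and 48 in Srsf5. Srsf11 had 41, Srsf1 31, Srsf3 25, Srsf10 19 and Srsf9 9. The main coding sequence of Srsf10 has 183 codons, and 37.0% of its counted bases lie outside it, so its count may be too low. None of the 3 stretches had an exact copy in another gene.

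A second set of sequences bears on how well some members can be measured, because only reads with a single mapping position had been counted. The stretches below are 30 nt of coding sequence that recur, letter for letter, in transcripts of other genes, nearly all of them processed pseudogenes (mm10, GRCm38, 5′ to 3′ on the coding strand). Those of Srsf3 (chr17:29036325-29036354), Srsf5 (chr12:80946645-80946674) and Srsf10 (chr4:135863052-135863081) are on the plus strand.
Srsf3: gggcttttggctattatggaccactcagaa
Srsf5: gaaagatgtggaaagattcttcaagggtta
Srsf10: tgaaagccaaggaagggaggaatgtataca
The stretch of Srsf3 recurs in Gm12355, Gm7083 and Gm9761, that of Srsf5 in Gm12966, and that of Srsf10 in Gm19901, Gm5446 and Gm9134. Of the 418 stretches of 30 nt in the counted coding sequence of Srsf3, 391 (93.5%) had such a copy. The share was 88.2% for Srsf10, 73.5% for Srsf5 and 12.7% for Srsf7, whose copy is Gm18821, and 0 for the other 6 members. With stretches of 50 nt, nearer the length of a total RNA read, the shares were 88.2%, 81.8%, 58.9% and 2.10% for Srsf3, Srsf10, Srsf5 and Srsf7. Among the 11736 tested genes with an annotated main coding sequence, 26.1% had any copied 30-nt stretch, and 624 genes (5.32%) had a copy for at least 50% of theirs. Of the genes that share sequence with Srsf3, Gm12355 is itself a row of the count table and held 0 to 3 counts per library.

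**Figure D1:**
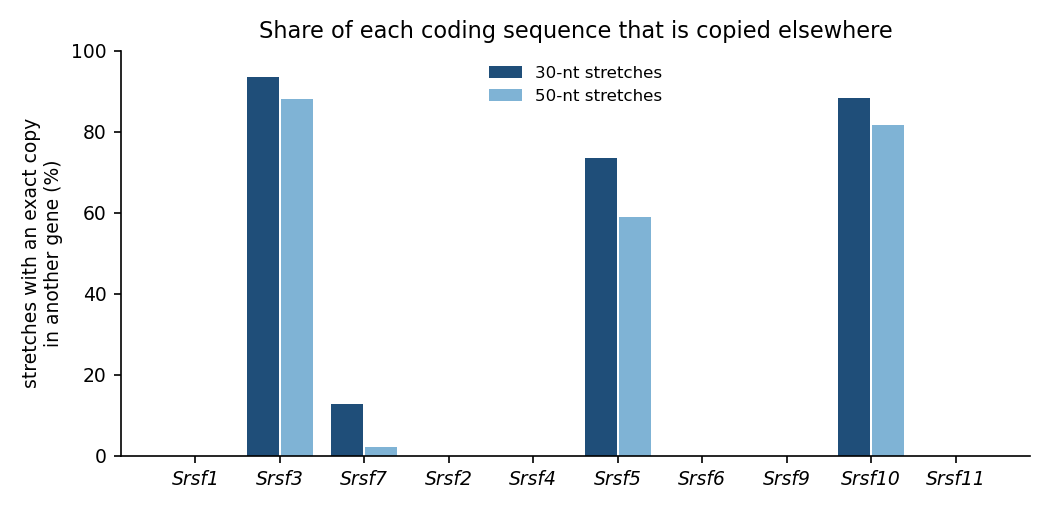
Share of the 30-nt (dark) and 50-nt (light) stretches of each member's counted coding sequence, in percent, that have an exact copy in a transcript of a gene elsewhere in the genome. Srsf3, Srsf10 and Srsf5 stand high, Srsf7 is at 12.7% and 2.10%, and the other 6 members are at 0.

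The libraries held 2681439 to 14655015 counts, with the EpiLC RPF libraries at 2681439 to 5413144, and a member had between 18 and 9242 counts in a library. The labels matched their markers: all 5 naive markers (Zfp42, Esrrb, Klf4, Tbx3, Tfcp2l1) fell and all 4 primed markers (Dnmt3b, Otx2, Fgf5, Pou3f1) rose in both assays. Pou5f1, a gene of both states, fell by 0.65 ± 0.05 (SE) on the log2 scale in total RNA. The summed total RNA level of 5 fibroblast markers was 1.96 to 2.19 CPM in ESCs and 13.4 to 14.9 CPM in EpiLCs, and all 3 of them that were tested rose. The 5 primitive endoderm markers summed to 3.68 to 4.80 and 4.80 to 5.49 CPM, with none of the 2 tested past the threshold. The 4 mesoderm markers summed to 5.82 to 7.27 and 3.77 to 7.39 CPM, with 1 of 1 tested (Eomes) lower. Trophoblast markers summed to 0.925 to 1.80 and 2.08 to 3.46 CPM, with Elf5 at 0 in every library and Cdx2 at 0 or 1 count, and the 1 tested gene did not pass in total RNA. The 4 neural markers summed to 82.0 to 95.03 and 62.3 to 72.8 CPM, with 2 higher (Pax6, Neurod1) and 1 lower (Tubb3). These markers moved with the cell type in the same libraries as the changes below, and their part in them was not tested. In these bulk libraries, fewer cells of a type and less RNA per cell cannot be told apart.

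To set the members against each other, counts were scaled to CPM (counts relative to a common library total, with TMM factors) and divided by the length of counted sequence, which is coding sequence without its first 45 nt. In ESC total RNA, Srsf1 stood first at 420 ± 12.5 CPM per kb (SD, n = 3) and Srsf7 next at 405 ± 21.3, and their libraries overlapped. Srsf6 followed at 288 ± 11.5 and Srsf2 at 276 ± 9.07 CPM per kb, again with overlap. Srsf5 (192 ± 5.02), Srsf11 (161 ± 4.55), Srsf3 (147 ± 6.11) and Srsf9 (146 ± 8.04) formed the middle, and of these neighbours only Srsf3 and Srsf9 overlapped. Srsf4 (54.5 ± 0.397) and Srsf10 (23.0 ± 1.69 CPM per kb) were the lowest and overlapped no other member. The order in EpiLC total RNA began with the same pair, Srsf1 at 496 ± 16.2 and Srsf7 at 481 ± 29.01 CPM per kb, and ended with the same pair, Srsf4 at 58.2 ± 2.70 and Srsf10 at 22.8 ± 2.80.

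The order differed in the RPF libraries, where Srsf2 had the highest mean in both cell types. It had 1065 ± 168 CPM per kb in ESC RPF and 1367 ± 373 in EpiLC RPF, ahead of Srsf1 at 1042 ± 119 and 1102 ± 92.7, though the libraries of these genes overlapped in both cell types. Srsf7 was the third at 673 ± 35.0 and 747 ± 60.4 CPM per kb. Srsf3 (62.6 ± 4.08 and 53.1 ± 2.59) and Srsf10 (13.95 ± 3.25 and 9.31 ± 1.21) were at the bottom. These are also the members with the largest copied share, and per position without a copy elsewhere the order changed. Counted that way, with 47 such positions for total RNA and 27 for RPF, Srsf3 was first of the 10 in total RNA of both cell types (1406 CPM per kb in ESCs) and the third in ESC RPF (1044 CPM per kb). By the same count Srsf10 moved from the tenth to the seventh place in total RNA of both cell types, and Srsf4 became the lowest in every group. The first place of Srsf1 in total RNA was thus not kept under this length. Copies were sought in the main coding sequence alone, while reads from all counted bases were kept. For Srsf10, 37.0% of counted bases lie outside it, so its place by this count may be too high. In ESC RPF the first place went to Srsf1, at 1211 CPM per kb against 1123 for Srsf2, and likewise per kb of main coding sequence alone (1161 against 1070). Srsf2 stayed first in EpiLC RPF by both. Neither gene has copies, but 9.88% of the counted bases of Srsf1 lie outside its main coding sequence, against 0 of Srsf2. Both lengths leave those bases of Srsf1 out and keep their reads, so this change of place does not bear on copies.

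**Figure D2:**
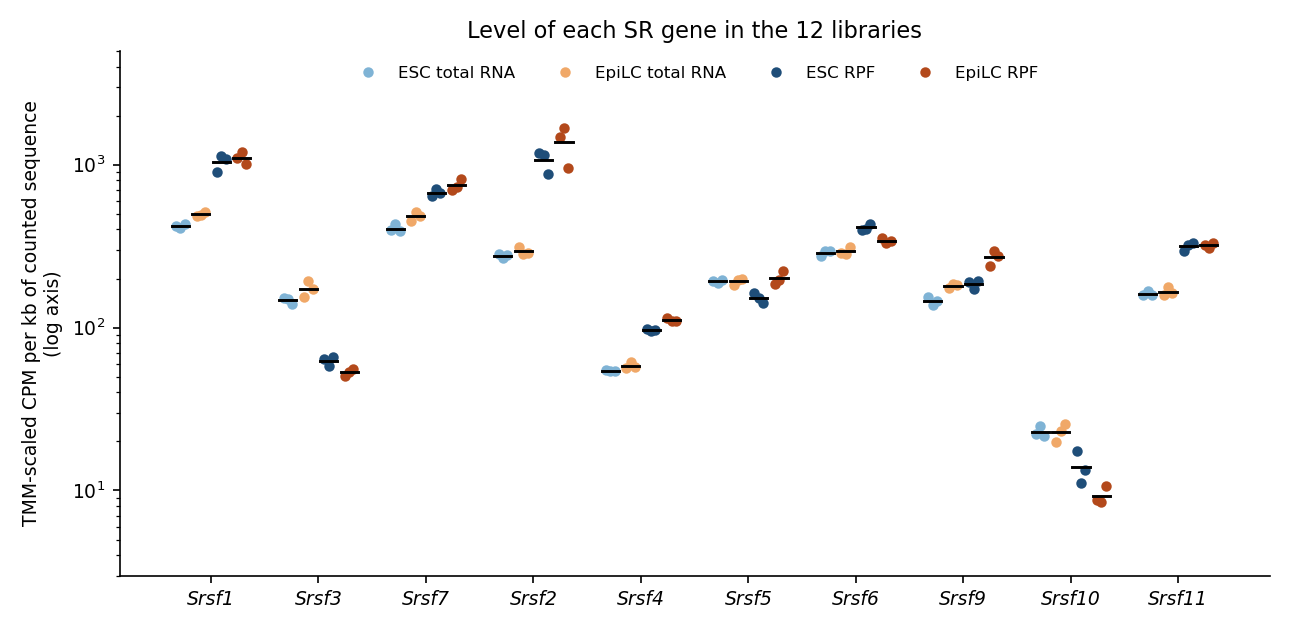
Level of each member in the 12 libraries, as TMM-scaled CPM per kb of counted sequence on a log axis, with points for the libraries of ESC and EpiLC total RNA and RPF and black bars for group means (n = 3). Srsf1 and Srsf7 lead in total RNA, Srsf2 and Srsf1 in RPF, and Srsf10 is the lowest throughout.

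Together the 10 genes took 0.176% to 0.179% of the counts of ESC total RNA libraries and 0.189% to 0.198% in EpiLC total RNA. In RPF they took 0.309% to 0.335% in ESCs and 0.329% to 0.375% in EpiLCs. The total RNA groups did not overlap, and the RPF groups did. The median size of a member's total RNA change, whatever its sign, was 0.09 on the log2 scale, against 0.42 over the 11750 tested genes, and in RPF it was 0.26 against 0.48. For the TE change, described below, it was 0.22 against 0.19.

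Between ESCs and EpiLCs, 4 of the 10 members rose in total RNA (Srsf1, Srsf3, Srsf7 and Srsf9) and 0 fell, with 0 falls also at an unadjusted p under 0.05 and with edgeR, DESeq2 and limma-trend, but 1 (Srsf2) after either GC correction. Over all tested genes 34.6% rose and 30.7% fell, so the share of members that rose was near the background. In RPF, 5 members rose (Srsf4, Srsf5, Srsf7, Srsf9 and Srsf2, the last of which turned to lower under a GC correction), where the background was 31.1%, and 1 fell (Srsf6), where it was 28.7%. No member changed by more than 2-fold, a limit that 14.6% of tested genes passed upward and 9.70% downward in total RNA, 15.4% and 10.6% in RPF and 0.136% and 0.119% in TE. For translational efficiency (TE, the change of RPF beyond that of total RNA), 0 of 10 members passed with voom and limma, where 0.570% of genes rose and 0.630% fell, and 3 (Srsf3, Srsf5 and Srsf6) had an unadjusted p under 0.05. The quasi-likelihood test of edgeR and limma-trend also called 0, and DESeq2 called 1 (Srsf5, adjusted p = 0.0233). The median change of the members was 0.09 in total RNA, 0.12 in RPF and -0.05 in TE, against 0.03, 0.01 and 0.01 over all tested genes. Libraries of the cell types did not overlap for 6 members in total RNA, all higher in EpiLCs (36.9% of all genes, with 33.4% lower), and for 3 higher (32.2%) and 3 lower members (30.9%) in RPF.

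**Figure D3:**
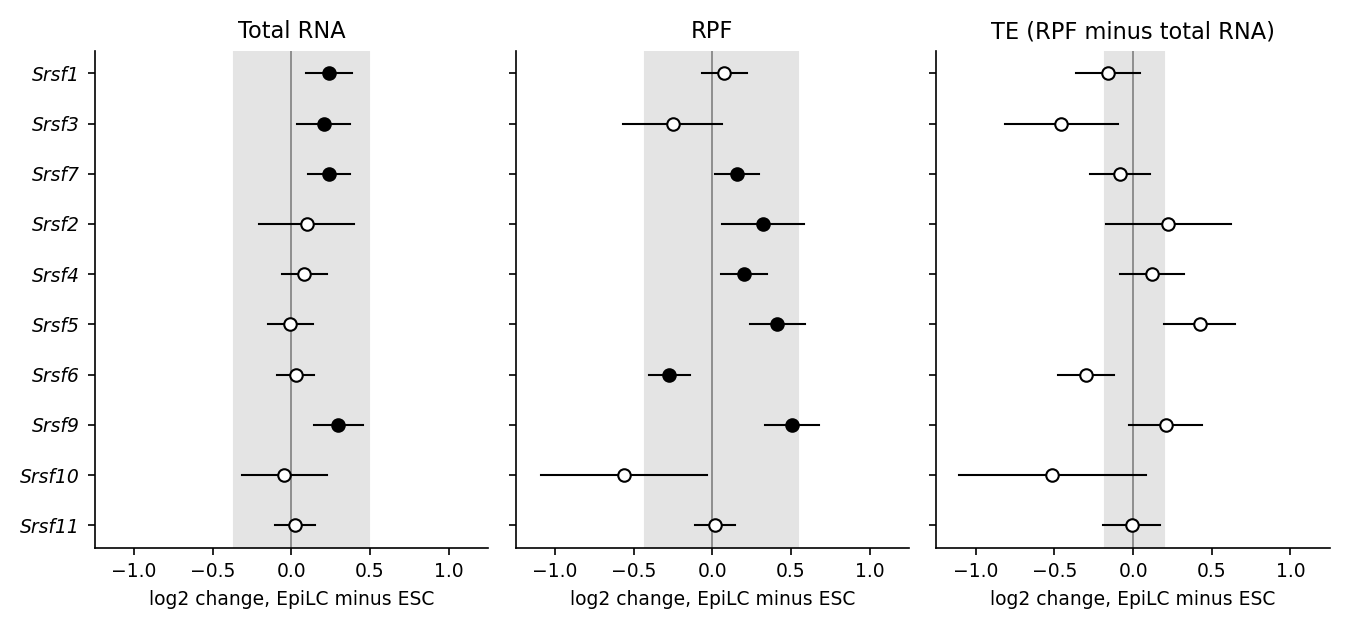
Log2 change from ESCs to EpiLCs of each member in total RNA, RPF and TE, with 95% intervals from limma. Filled points passed an adjusted p of 0.05, and the grey band holds the middle 50% of all 11750 tested genes. All total RNA changes lie between -0.04 and 0.30, RPF changes between -0.56 and 0.51, and no TE change passed. Srsf2, here above 0, was below 0 in total RNA and RPF under a GC correction.

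Srsf1, Srsf3 and Srsf7 are shuttling members that serve as adaptors for mRNA export besides their role in splicing. They are 3 of the 4 members that rose in total RNA, where 34.6% of all tested genes rose. A link to the export role was not tested. Srsf1 (ENSMUSG00000018379.17, chr11:88047884-88049999, plus strand) is the prototype of the family. Its total RNA libraries had 327, 317 and 337 CPM in ESCs and 378, 380 and 401 CPM in EpiLCs. Every EpiLC library was above every ESC library, a log2 change of 0.24 ± 0.07 (SE, adjusted p = 0.00507). RPF libraries of Srsf1 had 707, 882 and 846 CPM in ESCs and 851, 934 and 790 CPM in EpiLCs. These groups overlapped, and the RPF change was 0.08 ± 0.07 (adjusted p = 0.342).

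Srsf7 (ENSMUSG00000024097.10, chr17:80201548-80206011, minus strand) carries a zinc knuckle next to its RNA recognition motif. In total RNA it had 265, 289 and 263 CPM in ESCs and 304, 343 and 324 CPM in EpiLCs. The groups did not overlap, and the log2 change was 0.24 ± 0.06 (adjusted p = 0.00221). In RPF it had 429, 476 and 452 CPM in ESCs and 469, 489 and 547 CPM in EpiLCs. Here the groups overlapped, since 1 ESC library was above the lowest EpiLC library, and the change of 0.16 ± 0.07 barely passed (adjusted p = 0.0475). It passed in 4 of 10 other fits of all libraries, and in 2 of 12 fits on 11 libraries, those without EpiLC total RNA replicates 1 and 2. Without ESC RPF replicate 1 the change was 0.08 (adjusted p = 0.350), and without EpiLC RPF replicate 3 it was 0.05 (adjusted p = 0.547).

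Srsf3 (ENSMUSG00000071172.12, chr17:29036288-29041411, plus strand) is the smallest member, with 164 codons. Its total RNA libraries had 68.2, 67.1 and 62.95 CPM in ESCs and 69.3, 87.1 and 77.7 CPM in EpiLCs. The groups did not overlap, by a narrow margin, and the log2 change was 0.21 ± 0.08 (adjusted p = 0.0295). This call held in 5 of 10 other fits of all libraries and in 3 of the 12 that left out a library, those without ESC total RNA replicates 1 and 2 and EpiLC total RNA replicate 1 (0.32 without the last). In RPF the order was turned round, with 28.9, 26.1 and 29.6 CPM in ESCs and 22.8, 23.9 and 25.1 CPM in EpiLCs. All 3 EpiLC libraries were below all ESC libraries, but the RPF change of -0.25 ± 0.15 did not pass (adjusted p = 0.163). The TE change was -0.46 ± 0.17 (adjusted p = 0.218). With 93.5% of its 30-nt stretches copied elsewhere, Srsf3 was counted in both assays from a small part of its coding sequence.

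Srsf2 (ENSMUSG00000034120.18, chr11:116852028-116852884, minus strand) is largely kept in the nucleus and marks nuclear speckles. Total RNA libraries held 176, 165 and 174 CPM in ESCs and 194, 176 and 178 CPM in EpiLCs. The EpiLC libraries were just above the ESC libraries, and the change of 0.10 ± 0.15 did not pass (adjusted p = 0.573). In RPF it had 730, 712 and 541 CPM in ESCs and 921, 1037 and 590 CPM in EpiLCs. Replicate 3 was the low library in both cell types, and EpiLC replicate 3 lay below 2 of the ESC libraries. The RPF change was 0.32 ± 0.13 (adjusted p = 0.0298). Without ESC RPF replicate 3 it was 0.13 (adjusted p = 0.387), without EpiLC RPF replicate 1 it was 0.19 (adjusted p = 0.250), and without EpiLC RPF replicate 2 it was 0.15 (adjusted p = 0.303). Without EpiLC RPF replicate 3, the low library, it was 0.55 (adjusted p = 7.43e-06). The direction also depended on GC content. The coding sequence of Srsf2 had 68.4% GC, above 99.1% of tested genes, where the median was 53.0%. When a smooth of GC content was removed from each library, Srsf2 was lower in EpiLCs, by -0.38 in total RNA (adjusted p = 0.000122) and by -0.27 in RPF (adjusted p = 0.00118). No direction can therefore be given for Srsf2.

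Srsf4, Srsf5 and Srsf6 share a second RNA recognition motif and long RS tails. Srsf4 (ENSMUSG00000028911.16, chr4:131873809-131901072, plus strand) has the most arginine and serine pairs of the 10. In total RNA it had 78.6, 77.6 and 77.7 CPM in ESCs and 80.3, 87.6 and 81.9 CPM in EpiLCs, a change of 0.08 ± 0.07 (adjusted p = 0.297). In RPF it had 140, 135 and 139 CPM in ESCs and 163, 157 and 157 CPM in EpiLCs. The RPF groups did not overlap, and the change was 0.20 ± 0.07 (adjusted p = 0.0163). This call was lost when any 1 of the 6 RPF libraries was left out (0.15 to 0.19, adjusted p = 0.0580 to 0.145) and after the GC correction (0.10, adjusted p = 0.221).

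Srsf5 (ENSMUSG00000021134.17, chr12:80946640-80949978, plus strand) did not move in total RNA beyond its spread, with 148, 143 and 151 CPM in ESCs and 139, 151 and 153 CPM in EpiLCs (log2 change -0.01 ± 0.07, adjusted p = 0.926). RPF libraries had 125, 117 and 109 CPM in ESCs and 143, 149 and 171 CPM in EpiLCs. Every EpiLC library was above every ESC library, and RPF rose by 0.41 ± 0.08 (adjusted p = 0.000154), a call that all other fits kept. The TE change was 0.42 ± 0.11 on the log2 scale (95% interval 0.20 to 0.65) and just missed the threshold (adjusted p = 0.0545). It passed in 8 of 11 other fits of all libraries, with adjusted p from 0.0123 to 0.0920 over the 11. Among the 8 were the replicate block (adjusted p = 0.0406) and the block within each cell type (adjusted p = 0.0375), which takes total RNA and RPF of the same number as a pair. Of the 12 leave-one-out fits it passed in 2, and their adjusted p ran from 0.0371 to 0.180. With 73.5% of its 30-nt stretches copied elsewhere, Srsf5 was counted from part of its coding sequence. All fits share this limit.

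Srsf6 (ENSMUSG00000016921.14, chr2:162931716-162934757, plus strand) was the one member that fell in RPF. Total RNA held 310, 331 and 334 CPM in ESCs and 322, 319 and 354 CPM in EpiLCs, which overlapped (0.03 ± 0.06, adjusted p = 0.690). In RPF it had 450, 453 and 490 CPM in ESCs and 398, 374 and 382 CPM in EpiLCs. All EpiLC libraries were lower, and the RPF change of -0.27 ± 0.06 (adjusted p = 0.000618) passed in every other fit. The TE change was -0.30 ± 0.09 (95% interval -0.48 to -0.12, adjusted p = 0.0791), and it passed in 1 of 11 other fits. Srsf5 and Srsf6, neighbours in domain structure, thus moved in opposite directions in RPF while neither moved in total RNA beyond its spread. Their difference was not tested.

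Srsf9 (ENSMUSG00000029538.14, chr5:115327354-115332719, plus strand) resembles Srsf1 but has a short RS tail. It rose in both assays and had the largest rise of the 10 in each. Total RNA held 96.4, 86.4 and 90.7 CPM in ESCs and 109, 116 and 113 CPM in EpiLCs. With no overlap of groups, the change was 0.30 ± 0.08 (adjusted p = 0.00124). In RPF it had 119, 108 and 120 CPM in ESCs and 149, 183 and 173 CPM in EpiLCs. Again no libraries overlapped, and the change was 0.51 ± 0.08 (adjusted p = 1.08e-05). Both calls were kept by every other fit. The TE change of 0.21 ± 0.11 did not pass (adjusted p = 0.421).

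Srsf10 (ENSMUSG00000028676.17, chr4:135856272-135867186, plus strand) turns into a splicing repressor when its RS domain is dephosphorylated. In total RNA it had 17.96, 20.01 and 17.4 CPM in ESCs and 15.99, 18.7 and 20.5 CPM in EpiLCs, which overlapped (-0.04 ± 0.13, adjusted p = 0.779). In RPF it had 14.1, 8.91 and 10.7 CPM in ESCs and 7.03, 6.83 and 8.61 CPM in EpiLCs. The EpiLC libraries were below the ESC libraries, and the change of -0.56 ± 0.26 did not pass (adjusted p = 0.0632). It passed in 7 of 10 other fits of all libraries, edgeR (adjusted p = 0.0203) and DESeq2 (adjusted p = 0.0158) among them, and without ESC RPF replicate 2 (-0.69, adjusted p = 0.0259). The counts behind it were few, with 18 in EpiLC RPF replicate 2. In addition 37.0% of its counted bases lie outside its main coding sequence, the largest such share of the 10. Of the 30-nt stretches within that sequence, 88.2% had a copy elsewhere.

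Srsf11 (ENSMUSG00000055436.18, chr3:158012009-158036560, minus strand) is a more distant member that binds the U2AF complex of the 3′ splice site. It had 236, 249 and 237 CPM in ESC total RNA and 235, 263 and 242 CPM in EpiLC total RNA. RPF libraries had 440, 481 and 496 CPM in ESCs and 478, 459 and 491 CPM in EpiLCs. Both assays overlapped between cell types, with log2 changes of 0.02 ± 0.06 in total RNA (95% interval -0.10 to 0.15) and 0.02 ± 0.06 in RPF (95% interval -0.11 to 0.14).

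Within a cell type, the ratio of RPF to total RNA differed far more among members than it did between cell types. Here TE level means the log2 RPF minus the log2 total RNA of a gene in the same cell type, which sets the gene against the average gene and not against an absolute rate. At an adjusted p below 0.05, 7 members passed above 0 in ESCs (33.0% of all genes) and 3 below (34.5%). In EpiLCs 7 passed above 0 (31.3%) and 2 below (33.0%). Past a 2-fold ratio, there were 2 above (7.93% of all genes) and 1 below (13.5%) in ESCs, and 2 above (9.39%) and 2 below (14.4%) in EpiLCs. The median was 0.63 in ESCs and 0.61 in EpiLCs, against -0.02 and -0.01 over all tested genes.

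Srsf2 had the highest TE level of the family, 1.91 ± 0.13 in ESCs and 2.14 ± 0.14 in EpiLCs (SE), higher than 99.2% of tested genes in both. Its same-numbered library pairs gave 2.05, 2.11 and 1.64 in ESCs and 2.25, 2.56 and 1.73 in EpiLCs. Even replicate 3, the low RPF library, was thus above the other 9 members in both cell types. Srsf1 followed at 1.30 ± 0.07 in ESCs, and in EpiLCs its 95% interval ran from 0.99 to 1.29. Srsf11 (0.97 and 0.96), Srsf4 (0.83 and 0.95), Srsf7 (0.73 and 0.65), Srsf9 (0.35 and 0.56) and Srsf6 (0.52 and 0.22) were also above 0 in both cell types, each with an adjusted p below 0.05. None of these calls was lost in any other fit.

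At the other end, Srsf3 was at -1.21 ± 0.11 in ESCs and -1.67 ± 0.14 in EpiLCs, and Srsf10 at -0.70 ± 0.16 and -1.21 ± 0.24. Srsf5 was at -0.34 ± 0.07 in ESCs (adjusted p = 0.000236) and at 0.08 ± 0.08 in EpiLCs (adjusted p = 0.394). These are the 3 members whose coding sequence is mostly copied elsewhere, at 93.5%, 88.2% and 73.5% of 30-nt stretches for Srsf3, Srsf10 and Srsf5. More of their positions are copied at 30 nt than at 50 nt. Divided by the share of positions without a copy at 30 and 50 nt, the TE level of Srsf3 was -0.34 in ESCs and -0.79 in EpiLCs. That of Srsf10 was -0.07 and -0.58, and that of Srsf5 was 0.29 and 0.71, above 0 in both. The value of Srsf10 is uncertain, because the 37.0% of its counted bases outside its main coding sequence were not searched for copies. Among all tested genes, the 624 with at least 50% copied stretches had a median TE level of -0.40 in ESCs (middle 50% from -1.28 to 0.32). The 8669 without any copy had 0.02 (middle 50% from -0.55 to 0.49). Whether copied sequence accounts for the TE levels of Srsf3, Srsf5 and Srsf10 was not tested. The divisor is the same in both cell types by construction, so it cancels from changes between ESCs and EpiLCs. Whether copied sequence affects those changes was not tested.

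**Figure D4:**
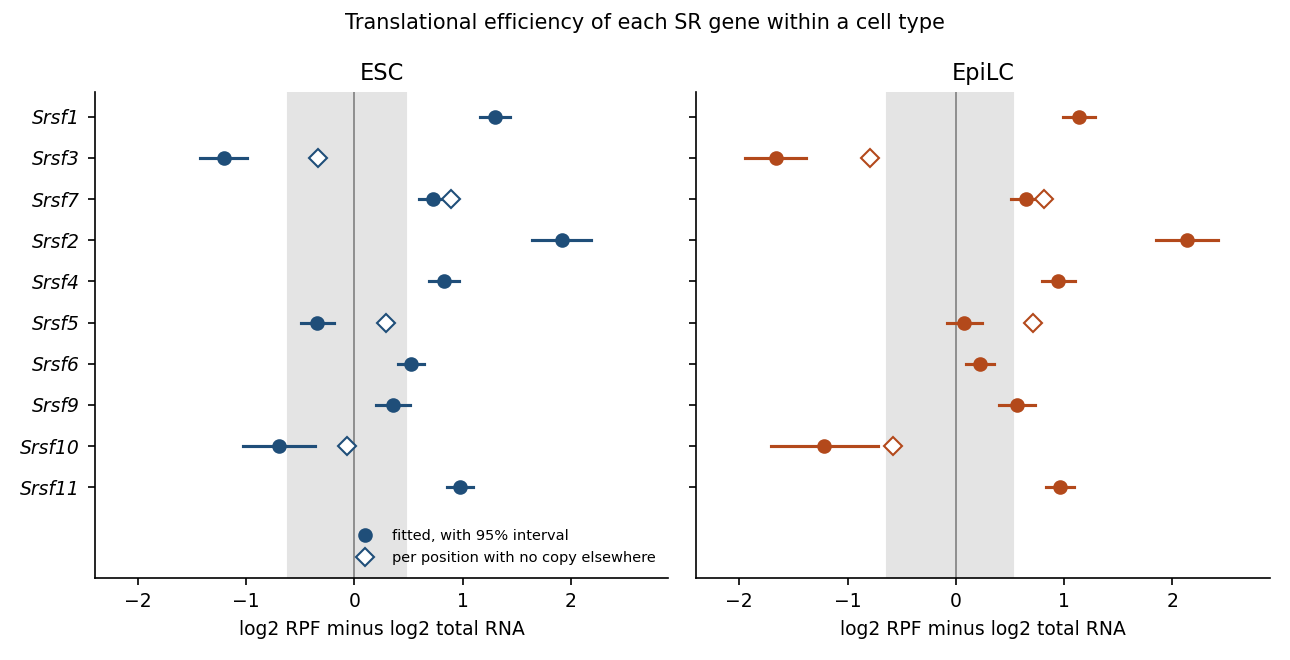
TE level of each member in ESCs and EpiLCs, as log2 RPF minus log2 total RNA (filled circles with 95% intervals). Open diamonds give the value per position without a copy elsewhere for the 4 members with copies, and the grey band holds the middle 50% of tested genes. Srsf2 is the highest in both panels, and the diamonds of Srsf3, Srsf5 and Srsf10 lie to the right of their circles by 0.87, 0.63 and 0.63.

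Genes that act with the SR proteins were taken from lists of other splicing genes. Their counts stand against 34.6% of all genes higher and 30.7% lower in total RNA, and 31.1% higher and 28.7% lower in RPF. Among the kinases that phosphorylate RS domains, 8 of 9 could be tested. Of these 3 rose in total RNA and 6 in RPF, and 0 fell, with medians of 0.16 and 0.30. The 3 became 5 without EpiLC total RNA replicate 1, and the 6 ranged from 4 to 6 when a library was left out. Clk4, a nuclear kinase of RS domains, rose by 0.82 ± 0.11 in total RNA and by 1.38 ± 0.18 in RPF. The other genes with RS domains gave 3 higher and 1 lower of 12 tested in total RNA, and 7 higher and 2 lower in RPF, with medians of 0.09 and 0.30. The 1 lower in total RNA became 2 without ESC RPF replicates 1 or 3, EpiLC RPF replicate 2 or EpiLC total RNA replicate 2, and 2 or 3 in 4 other fits. The remaining family member on that list, Srsf12, had at most 19 counts in a library and was not tested.

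For the partners in the early spliceosome, 2 of 12 rose and 4 fell in total RNA, and 4 rose and 4 fell in RPF. The 4 that fell in total RNA were 1 without ESC or EpiLC total RNA replicate 1, 2 without EpiLC total RNA replicate 3, 2 with edgeR and 1 with limma-trend. Both counts in RPF were 2 without EpiLC RPF replicate 3. U2af1, the small subunit of the factor that reads the 3′ splice site, had a TE change of 0.90 ± 0.19 (adjusted p = 0.0191). Its total RNA changed by -0.32 ± 0.12 and its RPF by 0.58 ± 0.15, calls that held in 17 and 21 of 22 other fits. The TE call was lost without ESC RPF replicate 1 (adjusted p = 0.0506), EpiLC RPF replicate 1 (adjusted p = 0.0528) or EpiLC RPF replicate 3 (adjusted p = 0.0945). It held in 10 of 11 other fits of all libraries. The hnRNP genes, whose products often oppose SR proteins at exons, gave 10 higher and 5 lower of 23 tested in total RNA and 10 higher and 3 lower in RPF. The 5 lower in total RNA were 3 without ESC total RNA replicate 1, 2 without EpiLC total RNA replicates 1 or 3, 3 with edgeR and 2 with limma-trend. Over all 22 other fits they ran from 2 to 7. Hnrnph3 had the largest changes among them, 0.87 ± 0.14 in total RNA and 1.23 ± 0.12 in RPF. Of the 6 import and export partners, 1 rose and 1 fell in total RNA and 2 rose and 2 fell in RPF. Leaving out single libraries changed each of these 4 counts. Those that fell in total RNA were 0 without replicates 1 or 3 of either total RNA group and 2 without ESC RPF replicates 1 or 3, and those that rose were 2 without EpiLC total RNA replicate 2. In RPF those that rose were 0 without ESC RPF replicates 1 or 2 and 1 without EpiLC RPF replicates 2 or 3, and those that fell were 1 without ESC RPF replicate 3.

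The list of splicing regulators taken as restricted to certain tissues moved over a much wider range than the SR genes. It also holds genes well expressed in these cells. In ESC total RNA, Khdrbs1 was at 181 CPM and Celf1 at 197 CPM. Of 18 tested, 9 rose and 5 fell in total RNA, 4 of them past 2-fold, and 8 rose and 5 fell in RPF, 5 of them past 2-fold. The 5 that fell in total RNA were 3 without ESC total RNA replicate 1, and the 8 that rose in RPF were 5 without EpiLC RPF replicate 1. Esrp1, a regulator of epithelial splicing, rose by 4.22 ± 0.23 in total RNA and by 5.60 ± 0.40 in RPF. Ptbp2, the neuronal relative of the PTB splicing repressor, rose by 1.84 ± 0.10 and 2.51 ± 0.12, with a TE change of 0.67 ± 0.16 (adjusted p = 0.0361). That TE call was lost in 7 of 12 leave-one-out fits (adjusted p = 0.0504 to 0.110), namely those without any 1 of the ESC RPF libraries, ESC total RNA replicate 2, EpiLC RPF replicate 3 and EpiLC total RNA replicates 1 and 3. Of 11 other fits of all libraries, 9 kept the TE call of Ptbp2. Mbnl3, a muscleblind protein, rose by 1.28 ± 0.34 in total RNA and by 1.02 ± 0.38 in RPF. Its RPF call was lost without ESC RPF replicate 1 (0.55, adjusted p = 0.194) or EpiLC RPF replicate 1 (0.82, adjusted p = 0.123). Nova2, a neuronal splicing factor added here after its values were seen, was the one that fell past 2-fold, by -1.06 ± 0.29 in total RNA (adjusted p = 0.00238) and -1.29 ± 0.29 in RPF (adjusted p = 0.000474). Esrp1, Ptbp2 and Mbnl3 were named because they passed 2-fold, which no SR gene did, so their larger folds follow from that choice. Mbnl3 was also low, at a mean of 1.91 CPM in ESC and 4.73 CPM in EpiLC total RNA.

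**Figure D5:**
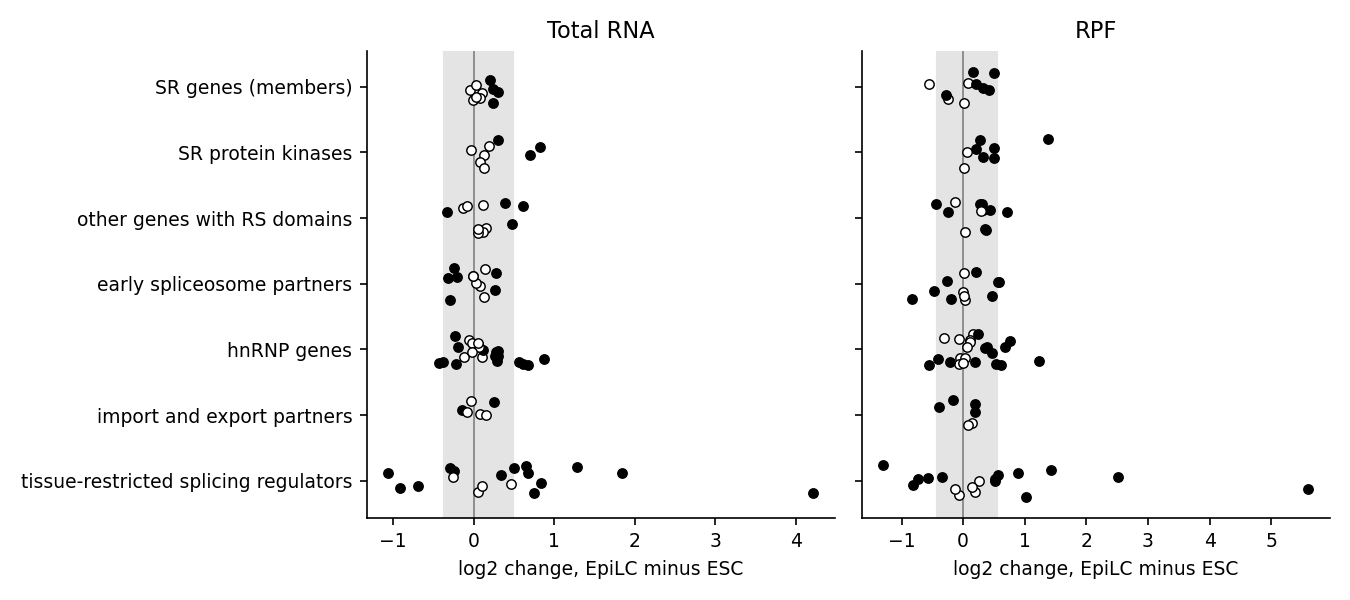
Log2 change from ESCs to EpiLCs in total RNA and RPF for the 10 SR genes and for 6 lists of other splicing genes, 1 point a gene (filled: adjusted p below 0.05; grey band: the middle 50% of all tested genes). The SR genes stay between -0.56 and 0.51. The list named tissue-restricted regulators, which also holds genes well expressed here, reaches 4.22 and 5.60.

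The genes whose standardised log2 CPM over the 12 libraries was most like the mean profile of the 10 members were Hsp90b1 (Pearson r = 0.991), Pdcl3 (0.988) and Sec62 (0.987). The points are the same 12 libraries for every gene. Members themselves had r of 0.72 to 0.98 with that mean profile, except Srsf3 (-0.90), Srsf10 (-0.86) and Srsf5 (-0.13). Each member is also part of that mean. The profiles span both assays, so r follows the offset between RPF and total RNA as well as the cell type. The exceptions are the members with a TE level below 0 in ESCs.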

How the data were processed

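RPF and total RNA libraries had been made from ESCs and EpiLCs with a TruSeq ribosome profiling kit, 3 of each kind, and were grouped by their titles. Raw counts of reads for each gene were deposited by the authors. Per their methods and processing notes, cutadapt (version 1.14) removed adapters, reads with a single position on mm10 were kept with STAR (version 2.5.3a), and 5′ ends of reads on the sense strand were counted over coding sequence without its first 45 nt with featureCounts (version 1.5.3). The deposited length column gave the counted length. PCR duplicates are not described, so counts may not be independent molecules, and the study calls its replicates biological without saying how cultures were split, so p-values cover the spread between these libraries. All sample columns were mapped (0 left over).

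From these counts, genes with at least 3 CPM in at least 3 libraries were kept, scaled with TMM factors (edgeR 4.0.16) and fitted with voom, which adds 0.5 to a count, and limma (3.58.1, R 4.3.3). A single model held the 4 groups without a replicate block. The contrasts were EpiLC minus ESC in total RNA and in RPF, their difference (the TE change), and RPF minus total RNA in each cell type (the TE level). Adjustment of p-values followed Benjamini and Hochberg across the 11750 genes, a gene passed below 0.05, and counts past a log2 fold limit of 1 are given beside. Calls by edgeR and by DESeq2 (1.42.0), other scalings and filters, a replicate block, a GC correction and leaving out each of the 12 libraries were the alternatives. Same-group libraries differed by more than sampling noise (chi-square per degree of freedom 2.46 to 7.19).

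Copies were sought as exact 30-nt and 50-nt stretches of the main coding sequence (Gencode M21, GRCm38) in transcripts of genes elsewhere in the genome. Genes were counted under a different Gencode release. GC content was available for 99.9% of tested genes. Named genes are the 10 members, genes of a list that passed with the fold limit in total RNA or RPF (at most 3 a list) or passed in TE, and the 3 genes most like the members' mean profile. The members and lists were chosen with earlier results of these data known. The fits were tested on simulated data for 11750 genes, with 200 changed. At a log2 change of 0.5, 64.5% were recovered in total RNA and 16.5% in TE, and at 1 they were 92.5% and 72.5%. The changed genes were drawn from all levels, and the RPF contrast was not scored. In the data 34.6% of genes rose and 30.7% fell in total RNA, far more than were changed here, so the total RNA rates may not hold for the data.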

Additional observations from a re-analysis of the deposited data

How the results depend on the processing

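The falls of Srsf6 and rises of Srsf5 and Srsf9 in RPF, and the rises of Srsf1, Srsf7 and Srsf9 in total RNA, kept their direction and stayed past the threshold in all 10 other fits of the full set of libraries and in all 12 that left out a library. So did the TE level calls. With the 2-fold limit added, 0 members rose in total RNA, 0 rose and 0 fell in RPF, and 2 were higher and 1 lower in TE level in ESCs, with 2 higher in EpiLCs. Members that rose in RPF (5) numbered 3 with DESeq2, 2 without a filter and 3 after the GC correction, alone or with the block, and 2 to 5 when a library was left out. Members that fell in RPF (1) numbered 2 with edgeR, DESeq2, limma-trend, a minimum of 10 counts or the replicate block, 3 with either GC correction, and 1 to 2 when a library was left out. TE calls were 1 higher (Srsf5) with DESeq2, RLE or total-count scaling, 10 counts, either block or either GC correction, 0 to 1 when a library was left out, and 1 lower (Srsf6) with GC correction and block. Either GC correction gave 1 member lower in total RNA, Srsf2, at -0.38, and in RPF Srsf2 was at -0.27. The cause was not tested.

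Other sign changes were of values that passed nowhere, neither before nor after the change. They were Srsf1 RPF (-0.042 with either GC correction), Srsf5 total RNA (0.00073 with limma-trend), Srsf6 total RNA (-0.014 with DESeq2 or RLE, -0.0064 without a filter), Srsf11 total RNA (-0.011 with DESeq2, -0.017 with RLE, -0.012 without a filter), Srsf11 RPF (-0.016, -0.012 and -0.010 in the same order, -0.017 with either GC correction) and Srsf11 TE (0.0046 with RLE, 0.020 with total counts, 0.0015 without a filter, 0.013 with 10 counts). When a library was left out, Srsf1 RPF ran from -0.061 to 0.11, Srsf5 total RNA from -0.045 to 0.052, Srsf6 total RNA from -0.011 to 0.062, Srsf10 total RNA from -0.12 to 0.11, Srsf11 total RNA from -0.013 to 0.071, its RPF from -0.080 to 0.029 and its TE from -0.067 to 0.042, and Mbnl3 TE from -0.70 to 0.19.

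The study calls total RNA matched to the RPF libraries and does not say that same-numbered libraries came from the same cells. Deviations of same-numbered libraries correlated at -0.17 to 0.12 over genes, with 1 of 12 pairs above 0.1. Between ESC total RNA and ESC RPF, libraries of different number reached -0.27 and 0.21. With 3 libraries a group, these values cannot show whether equal numbers mark the same cells. The replicate block gave 2 members lower in RPF (Srsf10 at adjusted p = 0.0468) and 1 higher in TE (Srsf5 at adjusted p = 0.0406). Without a filter the median RPF change of all genes was 0.13. Of simulated TE changes of 0.5 on the log2 scale, 16.5% were recovered. Levels per kb of Srsf3, Srsf5 and Srsf10 depend on how copied positions are counted. RPF values of Srsf10 rest on few reads.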
